A study of Mus musculus with 16 samples.

Results

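Expression of 10 regulators and targets of the integrated stress response and the unfolded protein response, *Atf4*, *Ddit3*, *Atf6*, *Xbp1*, *Herpud1*, *Asns*, *Trib3*, *Sesn2*, *Ddit4* and *Chac1*, was examined in newborn mouse lung and liver. Each gene was found by its symbol on 1 row of a table of 25054 gene entries, in 16 RNA sequencing libraries. The pups were of the C57BL/6J strain and were WT, heterozygous or null for *Man1a2*, a mannosidase that trims N-glycans, with a null allele that lacks exon 2. Their heterozygous parents drank N-acetylcysteine (NAC), a cysteine donor for glutathione, made up to give at most 1 g per kg of body weight, or water as placebo, from 1 week before mating to delivery. The 4 pup groups were WT and heterozygous pups that lived, whose tissue was taken 24 h after birth, and heterozygous and null pups that died within 24 h, whose tissue was taken at death. Survival was checked every 8 h. There was 1 library for each pup group, treatment and labelled tissue. Each library was a pool of RNA from 3 experiments, or from 2 for dead heterozygous pups, so that no label group had a replicate and the spread between animals was not measured.

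The tissue labels went against the tissue markers in many libraries, and the libraries were therefore grouped by content. A library with at least 1000 CPM (counts scaled to a common library total) of *Sftpc*, the surfactant protein of alveolar type 2 cells, and under 1000 CPM of *Alb*, the albumin of hepatocytes, was called lung-content, and a library with at least 50000 CPM of *Alb* liver-content. The 7 lung-content libraries held 4446 to 11758 CPM of *Sftpc* and 10.5 to 135 of *Alb*, and the 8 liver-content libraries 51003 to 101254 CPM of *Alb* and at most 3.10 of *Sftpc*. The library labelled dead null placebo lung held both, at 5553 CPM of *Sftpc* and 9280 of *Alb*, and was left as mixed. Lung-content comprised the libraries labelled live WT NAC, live heterozygous NAC and dead heterozygous placebo lung, and those labelled live WT placebo, live heterozygous placebo, dead heterozygous NAC and dead null placebo liver. Liver-content comprised the libraries labelled live WT placebo, live heterozygous placebo, dead heterozygous NAC and dead null NAC lung, and those labelled live WT NAC, live heterozygous NAC, dead heterozygous placebo and dead null NAC liver. Thus 8 libraries went against their label and 7 did not, and groups below are by content, with each library named as labelled. Libraries held 7236865 to 16107749 counts, of which the ribosomal RNA entry *Rn45s* took 0.845% to 26.2%. Lung-content libraries held 7236865 to 11808823 counts, with *Rn45s* at 4.05% to 26.2%. Liver-content libraries held 14115802 to 16107749, with *Rn45s* at 0.845% to 6.29%, so that tissue content and depth cannot be told apart. *Man1a2* was at 24.5, 29.6, 56.9 and 70.0 CPM in the 4 libraries labelled null and at 22.6 to 121 CPM over all 16, but counts by gene do not separate exon 2 and so do not check the genotype.

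In the integrated stress response, kinases that sense amino acid shortage, heme shortage, viral RNA or misfolded protein in the endoplasmic reticulum (ER) phosphorylate eIF2alpha, which lowers general translation while the transcription factor ATF4 is translated and switches on amino acid and redox genes. In the unfolded protein response the same ER signal also acts through ATF6, which is cleaved to a transcription factor, and through IRE1, which splices the *Xbp1* mRNA to an active form. These pathways are prominent in cells with a high secretory load such as hepatocytes and alveolar type 2 cells. Counts by gene measure neither the translation of *Atf4*, the cleavage of ATF6 nor the splicing of *Xbp1*.

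The genes lie on GRCm38 (GENCODE M21) at chr15:80255184-80257541 for *Atf4* (ENSMUSG00000042406, plus strand), chr1:170704674-170867771 for *Atf6* (ENSMUSG00000026663, minus), chr11:5520659-5525893 for *Xbp1* (ENSMUSG00000020484, plus) and chr8:94386438-94395377 for *Herpud1* (ENSMUSG00000031770, plus). *Asns* (ENSMUSG00000029752) lies at chr6:7675169-7693254 on the minus strand, *Sesn2* (ENSMUSG00000028893) at chr4:132492032-132510501 on the minus strand, and *Ddit4* (ENSMUSG00000020108) at chr10:59949669-59951834 on the minus strand. *Trib3* (ENSMUSG00000032715) at chr2:152337422-152344032 on the minus strand and *Chac1* (ENSMUSG00000027313) at chr2:119351229-119354381 on the plus strand share a chromosome. *Ddit3* (ENSMUSG00000025408) at chr10:127290774-127296288 on the plus strand is the only one of the 10 with exons that overlap other genes, *Mars* and *Gm4189* on the minus strand, and since the use of strand in counting is not given, its counts may hold reads of these genes. Another annotated entry, also named *Ddit3*, overlaps its exons on the plus strand.

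Promoters of RefSeq (GRCm38.p6), from 250 bases before to 50 bases after the annotated start, were found for 9 of the 10 genes. They were searched on both strands for the core of the ATF4 element, TGATGNAA, where N is any base, and for the ER stress response element in its first and its second form (ERSE and ERSE-II). The ATF4 core was present in 4 of the 9, *Asns*, *Chac1*, *Herpud1* and *Trib3*, and in 3.97% of 32851 mouse promoters of this length. The second ER stress element was present in *Herpud1*, as in 0.0365% of the promoters, and the first in none of the 9, against 0.119%. A match is a description of these letters and says nothing of whether a factor binds there. The promoters of *Asns*, *Trib3* and *Herpud1*, the 3 genes with an ATF4 core whose expression could be tested, are given 5′ to 3′ on the strand of the gene, with matches in capitals. The capitals mark the core at -23 on the gene strand in *Asns* (chr6:7693160-7693459, minus strand), the core at +15 on the opposite strand in *Trib3* (chr2:152344011-152344310, minus strand), and, in *Herpud1* (chr8:94386179-94386478, plus strand), the core at -112 on the opposite strand followed by the second ER stress element at -52 on the gene strand.
Asns: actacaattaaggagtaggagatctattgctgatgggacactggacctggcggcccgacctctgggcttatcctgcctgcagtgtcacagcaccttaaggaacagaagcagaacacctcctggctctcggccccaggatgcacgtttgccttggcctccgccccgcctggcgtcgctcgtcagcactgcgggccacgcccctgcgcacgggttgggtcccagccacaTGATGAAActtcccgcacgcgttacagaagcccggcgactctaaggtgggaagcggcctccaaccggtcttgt
Trib3: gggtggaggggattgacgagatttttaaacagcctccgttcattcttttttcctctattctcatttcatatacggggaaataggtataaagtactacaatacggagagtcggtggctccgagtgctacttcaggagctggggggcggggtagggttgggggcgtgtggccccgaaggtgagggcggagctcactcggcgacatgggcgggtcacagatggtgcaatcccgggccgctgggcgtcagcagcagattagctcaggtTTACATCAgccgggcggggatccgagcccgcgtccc
Herpud1: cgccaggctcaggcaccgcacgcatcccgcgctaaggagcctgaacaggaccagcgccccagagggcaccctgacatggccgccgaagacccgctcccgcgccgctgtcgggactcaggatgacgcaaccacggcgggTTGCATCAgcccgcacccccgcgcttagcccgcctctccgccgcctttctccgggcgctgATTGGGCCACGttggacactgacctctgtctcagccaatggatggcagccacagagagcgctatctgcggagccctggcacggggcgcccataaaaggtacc

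Per kb of exon, *Herpud1* and *Atf4* were the most abundant of the 10 transcripts and *Chac1* the least in both tissues. In lung-content libraries the median level, as CPM scaled by edgeR's TMM factors and divided by exon length, was 57.3 for *Atf4*, 55.0 for *Herpud1*, 46.9 for *Ddit4* and 31.9 for *Xbp1*, with overlapping ranges between neighbours in this order. *Atf6* followed at 9.93, below *Xbp1* in each of the 7 libraries with no overlap of the ranges, then *Sesn2* at 5.68, *Ddit3* at 3.69, *Trib3* at 2.65 and *Asns* at 2.44, each overlapping the next. *Chac1* was last at 0.423, with no overlap with *Asns*. In liver-content libraries the order was *Herpud1* at 126, *Atf4* at 80.8, *Xbp1* at 46.8, *Asns* at 40.3, *Ddit4* at 19.6, *Atf6* at 7.63, *Ddit3* at 7.03, *Trib3* at 4.98 and *Sesn2* at 4.41, all overlapping their neighbours, with *Chac1* last again. *Herpud1* was above *Atf4* in 8 of 8 liver-content libraries, although the ranges overlapped. The plot of levels by content shows *Asns* as the gene whose place changed most, from the ninth to the fourth.

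**Figure D1:**
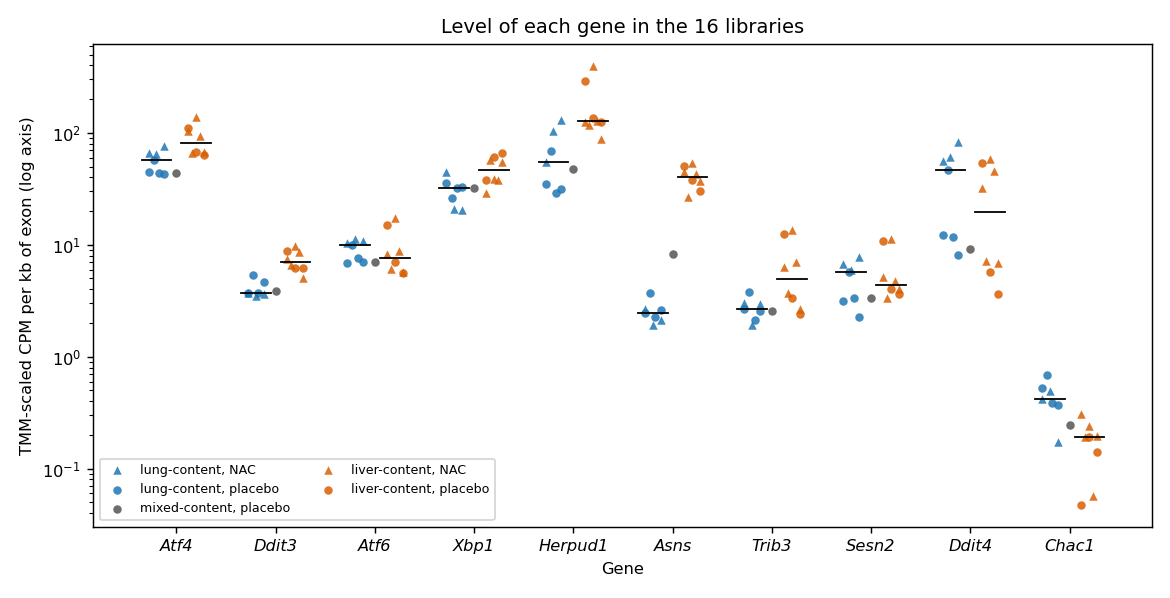
Level of each of the 10 genes in the 16 libraries, as TMM-scaled CPM per kb of exon on a log axis, for lung-content (blue), liver-content (orange) and mixed-content (grey) libraries with NAC (triangles) or placebo (circles); the bar is the median of 7 lung-content or 8 liver-content libraries. The *Asns* points of both tissues lie apart, with the mixed library between them, and *Ddit4* spreads over the widest range within a tissue.

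*Asns*, which makes asparagine from aspartate and glutamine, showed the largest difference between the tissues. It was at 5.28, 5.78, 6.17, 6.67, 7.08, 7.35 and 10.2 TMM-scaled CPM in the lung-content libraries. In the liver-content libraries it ranged from 72.9 to 146 around a median of 110. The groups did not overlap, and the mixed library was at 22.7, between them. The log2FC of liver-content over lung-content was 3.99 (SE 0.19, 15 libraries, adjusted p = 4.39e-10, edgeR quasi-likelihood test with Benjamini-Hochberg adjustment). *Asns* was the only 1 of the 9 tested genes whose groups did not overlap, against 49.8% of all genes tested, 25.9% with the liver-content group above.

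*Herpud1*, an ER membrane protein of ER-associated degradation, was at 67.2 to 302 scaled CPM with a median of 128 in lung-content libraries and at 205 to 923 with a median of 294 in liver-content libraries. The groups overlapped through the live WT and live heterozygous NAC libraries labelled lung, at 243 and 302. *Trib3*, a pseudokinase that restrains ATF4 and AKT signaling, was at 4.12 to 8.07 in lung-content and 5.10 to 28.8 in liver-content libraries. *Ddit3*, which encodes the transcription factor CHOP, was at 6.00 to 9.19 and 8.65 to 16.6, so that a single lung-content library, dead null placebo labelled liver, reached into the liver-content range.

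By the same test 6 of the 9 genes tested were higher in liver-content libraries and none lower, against 40% of 14175 genes higher and 36.4% lower, or 76.4% in either direction. Beside *Asns* these were *Herpud1* (log2FC 1.43, SE 0.32, adjusted p = 0.00113), *Trib3* (1.10, SE 0.33, adjusted p = 0.00772), *Ddit3* (0.87, SE 0.17, adjusted p = 0.000275), *Xbp1* (0.65, SE 0.20, adjusted p = 0.00756) and *Atf4* (0.59, SE 0.16, adjusted p = 0.00511). The 6 of 9 called was not above the share over all genes. Scaling by library size alone moved the median log2FC of all genes from 0.08 to -0.56 and the share of higher among called genes from 52.3% to 30.4%, and it gave -0.05 for *Atf4*, -0.004 for *Xbp1*, 0.24 for *Ddit3* (adjusted p = 0.216) and 0.45 for *Trib3* (adjusted p = 0.177), while *Asns* and *Herpud1* remained higher at 3.35 and 0.82. Differences for *Atf6* (log2FC -0.05, 95% interval -0.54 to 0.43), *Sesn2* (0.18, -0.41 to 0.78) and *Ddit4* (-0.77, -2.09 to 0.54) did not pass, though with library size alone *Atf6* at -0.70 and *Ddit4* at -1.38 were called lower. With the labelled tissue in place of content, in a fit of all 16 libraries including the mixed one, *Asns* was at -0.19, and no gene tested passed. In bulk RNA, fewer cells of a type and less RNA per cell cannot be told apart. *Chac1*, which degrades glutathione, had 1 to 12 counts per library, or 0.078 to 1.12 scaled CPM, and fell below the expression filter. Without the filter it was called lower in liver-content libraries (log2FC -1.38, adjusted p = 0.0142), at 1 to 6 counts against 2 to 12 and with overlapping ranges, so that 7 of 10 genes were called, against 63% of 19406 genes, 32.3% higher and 30.7% lower. It was called in no other comparison without the filter.

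Other genes of the pathways were counted in the same comparison, whose median over all genes was 0.08. Of 21 ATF4 targets for amino acid synthesis and transport, 13 were higher and 2 lower in liver-content libraries, with a median log2FC of 1.32. They included *Cth* and *Cbs* of cysteine synthesis (5.76, SE 0.20, and 5.46, SE 0.31), *Got1*, which makes aspartate (5.74, SE 0.40), and the folate enzyme *Mthfd2* (3.44, SE 0.38). Of 12 genes in a list of cytosolic aminoacyl-tRNA synthetases, which also holds the tRNA exportin *Xpot*, 10 were higher and 1 lower, with *Tars* at 1.58 (SE 0.13). Of 14 eIF2alpha kinases, subunits of eIF2 and eIF2B, and phosphatases, 10 were higher and 0 lower, led by the heme-regulated kinase *Eif2ak1* at 1.78 (SE 0.28). Blood cell markers moved in the same comparison, with 11 of 11 entries for erythroid genes higher (median log2FC 1.59, summed CPM 12027 to 25967 in lung-content and 9253 to 56339 in liver-content libraries) and 8 of 8 neutrophil markers higher (median 5.33, summed CPM 136 to 313 and 2207 to 3883). Their part in these differences was not tested.

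Of 17 genes of the ATF6 branch 14 were higher and 2 lower, among them the chaperones *Sdf2l1* (2.46, SE 0.22) and *Calr* (1.66, SE 0.15). Of 19 genes of the IRE1-XBP1 branch and ER-associated degradation 11 were higher and 3 lower, with *Edem2* at 1.17 (SE 0.14). The list of other factors and targets of ATF4 and CHOP was divided, with 4 of 18 higher, such as *Atf5* (4.86, SE 0.30), and 8 lower, such as *Nupr1* (-3.84, SE 0.43). With library size alone 23.2% of all genes were higher and 53.1% lower. The splits were then 10 higher and 6 lower for the amino acid targets, 7 and 2 for the synthetase list and 5 and 2 for the eIF2 list. For the ATF6 branch they were 7 and 3, for the ATF4 and CHOP list 3 and 11, and for the IRE1-XBP1 list 1 and 8.

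Among lung-content libraries, the question was whether the 10 genes differed with gestational NAC. *Ddit4*, an inhibitor of mTORC1 that glucocorticoids and hypoxia are known to induce, was at 98.2, 106 and 146 scaled CPM with NAC, in the order dead heterozygous, live WT and live heterozygous. With placebo it was at 21.3, 20.7 and 14.2 in the same pup groups and at 82.3 in the dead null library. The NAC libraries were thus above all placebo libraries, and the dead null library was the placebo library nearest to them. The log2FC was 2.14 (SE 0.92, 95% interval 0.05 to 4.23), with an adjusted p of 0.183.

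*Sesn2*, a sestrin that restrains mTORC1 and supports antioxidant defense, was at 23.4, 20.8 and 26.9 with NAC in these pup groups, at 10.8, 11.6 and 7.86 with placebo and at 19.7 in the dead null placebo library (log2FC 1.02, SE 0.39, adjusted p = 0.145). *Herpud1* was at 128, 243 and 302 with NAC, against 80.6, 67.2 and 73.7 with placebo and 160 in the dead null library, which lay above the dead heterozygous NAC library (log2FC 1.27, SE 0.49, adjusted p = 0.149). *Atf4* was at 157, 153 and 181 with NAC, against 104, 104 and 102 with placebo and 135 in the dead null library (log2FC 0.58, SE 0.24, adjusted p = 0.17). All 4 genes showed the same order, with the dead null placebo library between the other placebo libraries and most NAC libraries.

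By edgeR's quasi-likelihood test 0 of the 9 tested genes passed, against 186 of 14175 genes or 1.31% (0 of 9 and 657 genes with pup group as a block), and the 4 genes *Ddit4*, *Sesn2*, *Herpud1* and *Atf4* had an unadjusted p under 0.05, as did 3386 of all genes. DESeq2 called *Herpud1* alone (adjusted p = 0.0481), against 9.43% of genes. NAC and placebo libraries did not overlap for 5 of the 9 genes, *Atf4*, *Atf6*, *Ddit4* and *Sesn2* above and *Ddit3* below, while 29% of all genes did not overlap, 14.1% above and 14.8% below. *Atf6* was at 96.5 to 104 with NAC and 63.7 to 91.7 with placebo (log2FC 0.48, 95% interval -0.23 to 1.19). *Ddit3* was at 6.00 to 6.32 and 6.32 to 9.19 (-0.25, -0.80 to 0.30) at 44 to 119 counts per library, so that both groups met at the same level. *Xbp1* (-0.15, -0.78 to 0.48), *Asns* (-0.23, -0.81 to 0.34) and *Trib3* (0.00, -1.11 to 1.11) did not pass.

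**Figure D2:**
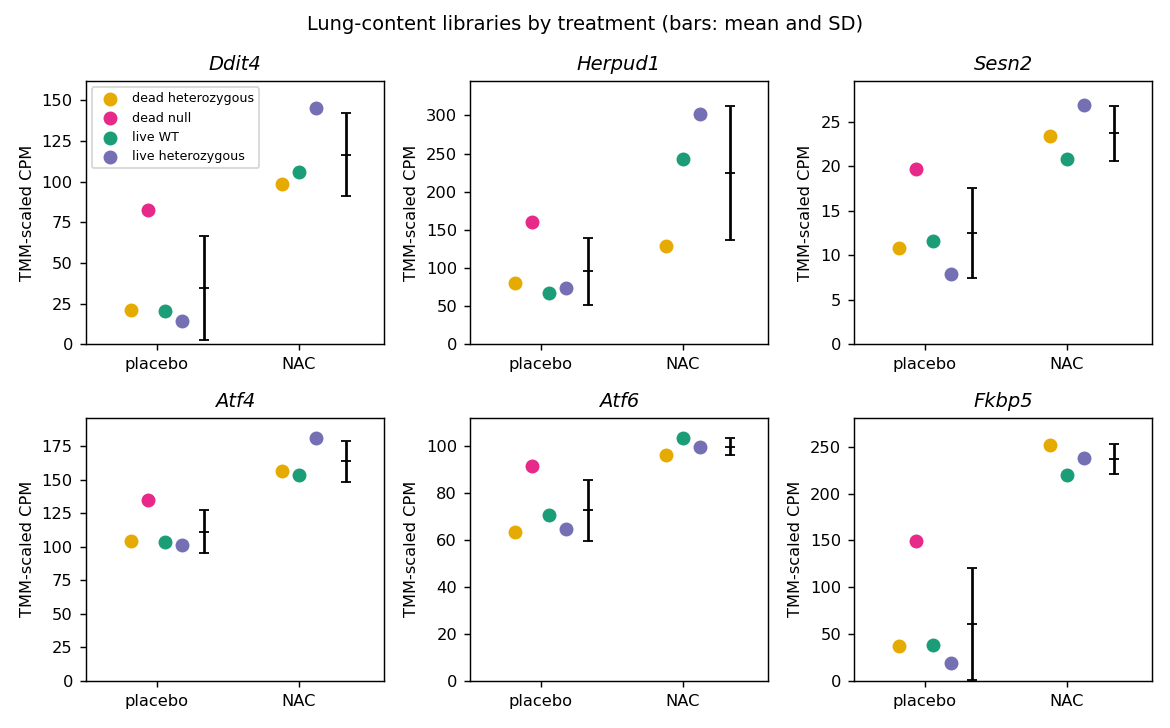
TMM-scaled CPM of *Ddit4*, *Herpud1*, *Sesn2*, *Atf4*, *Atf6* and the glucocorticoid-induced *Fkbp5* in the 4 placebo and 3 NAC lung-content libraries, colored by pup group, with bars for mean and SD. The dead null placebo library (pink) is the highest placebo library in each panel, and in the *Herpud1* panel it lies above the dead heterozygous NAC library.

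By label, null pups contributed a lung-content library with placebo and none with NAC, so that genotype and treatment cannot be told apart for it. Both libraries labelled dead null NAC were liver-content, while those labelled dead null placebo were lung-content and mixed. The counts do not check the treatment labels, and whether labels were exchanged between NAC and placebo was not tested. Without the 3 dead null libraries, a fit chosen after the values were seen, *Herpud1* (log2FC 1.53, SE 0.30, adjusted p = 0.00811), *Sesn2* (1.22, SE 0.27, adjusted p = 0.012), *Atf4* (0.66, SE 0.17, adjusted p = 0.0208) and *Ddit4* (2.63, SE 0.70, adjusted p = 0.0244) were called higher with NAC by edgeR. Thus 4 of 9 were called higher, against 11.8% of 14211 genes higher and 22.7% in either direction. Without the dead null placebo library alone the adjusted p was 0.0587 for *Herpud1*, 0.0782 for *Sesn2*, 0.0885 for *Ddit4* and 0.118 for *Atf4*, with 6.04% of genes called. Over the 15 fits that left out a single library, none of the 4 genes passed, and the log2FC of *Ddit4* ranged from 1.76 to 2.84 and that of *Herpud1* from 0.98 to 1.95.

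A list of 6 genes known to be induced by glucocorticoids was followed beside *Ddit4*. *Fkbp5*, a chaperone partner of the glucocorticoid receptor, was at 252, 220 and 238 scaled CPM with NAC, at 36.8, 38.4 and 19.2 with placebo and at 149 in the dead null placebo library, which was again between the other placebo and the NAC libraries. It was the only 1 of the 6 that passed (log2FC 2.41, SE 0.44, adjusted p = 0.0411). The call was lost with library size alone (adjusted p = 0.0577) and in 8 of the 15 fits that left out 1 library (adjusted p = 0.0586 to 0.197), those without the dead heterozygous placebo library labelled lung or any of the live libraries other than live WT NAC labelled liver. Without the dead null libraries 6 of 6 were called higher with a median log2FC of 2.64. Of the other pathway lists none had a called gene in the 15-library fit. Without the dead null libraries the largest called shares were 9 of 21 amino acid targets, 5 higher and 4 lower, and 6 of 14 genes of the eIF2 list, 4 higher and 2 lower. Summed CPM of 8 neutrophil markers was 224 to 313 in the NAC and 136 to 183 in the placebo lung-content libraries, and that of 12 liver markers 802 to 1464 and 252 to 906. Their part in the differences was not tested.

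In the liver-content libraries none of the 9 genes passed for NAC against placebo and none had an unadjusted p under 0.05 in edgeR, and DESeq2 called 0 as well. Null pups contributed 2 liver-content libraries with NAC and none with placebo, so that genotype and treatment cannot be told apart for them. Both entered the fit as separate libraries. NAC and placebo libraries overlapped for all 9, while 1.7% of all genes did not overlap. Over all genes edgeR called 0 of 14175 (0%), with 535 at an unadjusted p under 0.05, and DESeq2 6. The log2FC was -0.35 for *Herpud1* (95% interval -1.32 to 0.63), -0.22 for *Sesn2* (-1.03 to 0.60), 0.12 for *Atf4* (-0.40 to 0.63) and 0.84 for *Ddit4* (-1.05 to 2.74). The NAC difference in liver-content minus that in lung-content libraries was -1.62 for *Herpud1* (SE 0.65, adjusted p = 0.312) and -1.24 for *Sesn2* (SE 0.53, adjusted p = 0.331), and 0 of 14175 genes passed (0%), while 1951 had an unadjusted p under 0.05 and DESeq2 called 227. Without the 3 dead null libraries these 2 genes were called, *Herpud1* at -2.11 (SE 0.41, adjusted p = 0.0213) and *Sesn2* at -1.45 (SE 0.38, adjusted p = 0.0461), against 6.29% of genes.

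Within the liver-content group the libraries of the same treatment or outcome spread widely. *Ddit4* was at 6.41 and 9.97 scaled CPM in the live heterozygous and live WT placebo libraries labelled lung and at 94.5 in that of dead heterozygous pups labelled liver. With NAC it was at 80.4 in the live WT library labelled liver, 12.1 in the live heterozygous library labelled liver, 56.3 in the dead heterozygous library labelled lung, and 103 and 12.5 in the dead null libraries labelled lung and liver. High and low values thus occurred with either treatment and either outcome, and the 2 dead null NAC libraries, which carry the same pup group and treatment, lay far apart. Summed CPM of 8 muscle markers was 96.5 to 726 in the liver-content libraries with *Ddit4* at 56.3 or above. It was 6.6 to 28.3 in those with *Ddit4* at 12.5 or below, and the part of these markers was not tested.

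The same 2 dead null NAC libraries, labelled lung and liver, were at 326 and 156 for *Atf4*, at 28.8 and 7.83 for *Trib3*, at 39.4 and 11.5 for *Sesn2*, at 159 and 56.3 for *Atf6* and at 923 and 272 for *Herpud1*. *Xbp1* was lower in the library labelled lung, at 126 against 184. Summed CPM of 8 muscle markers was 596 and 8.9 in these libraries, that of the erythroid markers 37567 and 10810 and that of the neutrophil markers 3651 and 2570, and their part in the differences was not tested. The dead heterozygous placebo library labelled liver was the nearest to the dead null NAC library labelled lung for *Herpud1*, at 675, *Trib3*, at 26.7, and *Sesn2*, at 37.7.

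**Figure D3:**
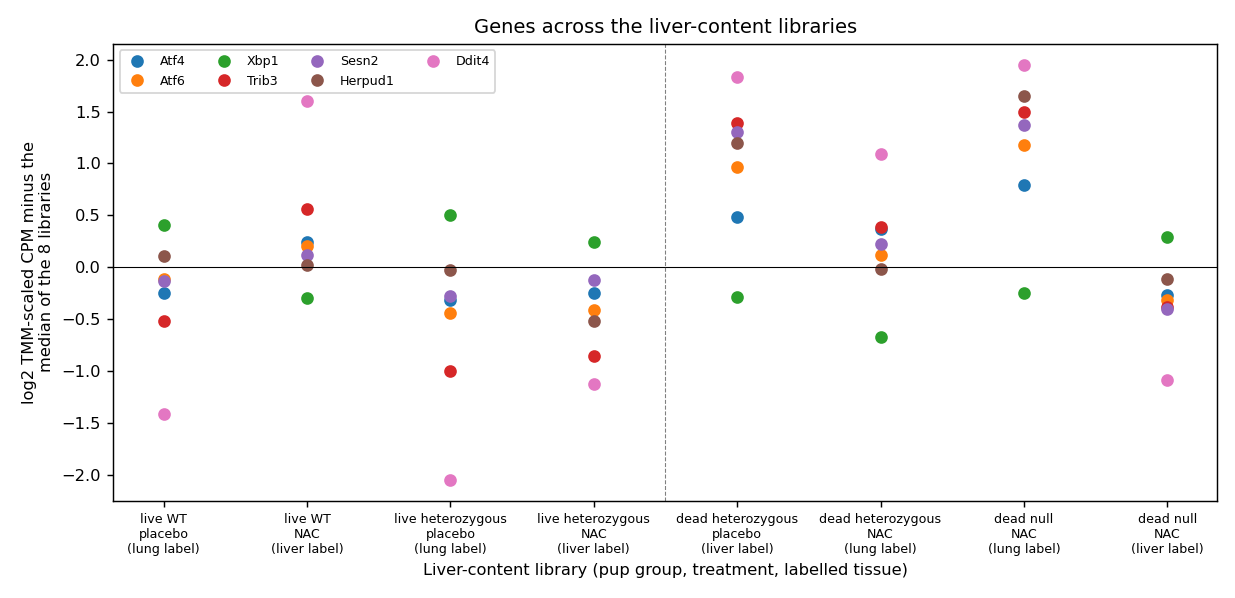
Log2 TMM-scaled CPM of 7 of the genes in each of the 8 liver-content libraries, as the difference from the gene's median over these libraries, with live pups left and dead pups right of the dashed line. *Ddit4* lies over 1 unit above its median in 4 libraries and over 1 unit below in 4, and *Xbp1* lies on the opposite side of 0 from *Ddit4* in 8 of 8.

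The comparison of dead with live pups asks whether the stress genes differed with neonatal death. Live pups were WT or heterozygous and dead pups heterozygous or null, so that outcome and genotype cannot be told apart in this comparison. Dead pups were younger at collection than survivors, so that death and age cannot be told apart. With survival checked every 8 h, any delay between death and collection is not known and cannot be told apart from them either. In liver-content libraries, *Trib3* was at 5.10, 5.66, 7.12 and 15.04 scaled CPM in live and at 7.83, 13.4, 26.7 and 28.8 in dead pups. *Sesn2* was at 12.6, 13.9, 14.1 and 16.6 in live and at 11.5, 17.9, 37.7 and 39.4 in dead pups. *Herpud1* was at 205, 290, 298 and 316 in live and at 272, 291, 675 and 923 in dead pups. The groups overlapped for each of these genes, and for all 9 tested, while 2.57% of all genes did not overlap. The dead null NAC library labelled liver was within or below the range of live pups for all 3. Summed CPM of the muscle markers was 6.6, 6.9, 28.3 and 726 in the live liver-content libraries. In the dead ones it was 8.9, 96.5, 294 and 596, and the part of these markers in the differences was not tested.

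By edgeR's quasi-likelihood test 0 of 9 genes passed, against 19 of 14175 (0.134%), all 19 of which were higher in dead pups, and DESeq2 also called 0 of the 9. The 5 genes with an unadjusted p under 0.05 were *Trib3* (log2FC 1.22, SE 0.42), *Herpud1* (1.04, SE 0.43), *Sesn2* (0.92, SE 0.35), *Atf6* (0.80, SE 0.29) and *Atf4* (0.50, SE 0.22), with adjusted p of 0.541 to 0.563. Over all 14175 genes, 1243 had an unadjusted p under 0.05 by this test. Of the pathway lists, *Got1* (log2FC 2.72, SE 0.43, adjusted p = 0.045), 1 of 21 amino acid targets, and *Sgk1* (2.58, SE 0.44, adjusted p = 0.0458), a kinase that is 1 of the 6 glucocorticoid-induced genes, were called higher. Both calls were kept in 1 of 15 fits that left out 1 library, that without the dead null NAC library labelled liver, and in the other 14 the adjusted p ran from 0.0573 to 0.991, the highest without the dead heterozygous placebo library labelled liver. With the mixed library counted as lung-content it was 0.514 for *Got1* and 0.0807 for *Sgk1*. *Got1* was at 132 to 272 in live and 320, 824, 1385 and 2756 in dead pups. Without the dead null NAC library labelled liver, 259 genes were called and the adjusted p of *Trib3*, *Atf6* and *Sesn2* fell to 0.0545, 0.0547 and 0.0578.

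In lung-content libraries 0 of 9 genes passed for dead against live pups, none had an unadjusted p under 0.05, and none had groups that did not overlap, while 2.77% of all genes did not. Over all genes edgeR called 0 of 14175 (0%), with 277 at an unadjusted p under 0.05, and DESeq2 called 0. The log2FC ran from 0.09 for *Atf6* to 0.85 for *Ddit4* (95% interval -1.23 to 2.93), with *Xbp1* at 0.42 (-0.21 to 1.04). *Xbp1* was at 66.8, 68.2, 104 and 106 in live and 85.1, 115 and 145 in dead pups. The difference between the tissues in the dead minus live change did not pass for any of the 9, with 1 of 14175 genes called (0.00705%), and was -0.78 for *Xbp1* (SE 0.39, adjusted p = 0.891) and 0.95 for *Herpud1* (SE 0.65, adjusted p = 0.891).

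**Figure D4:**
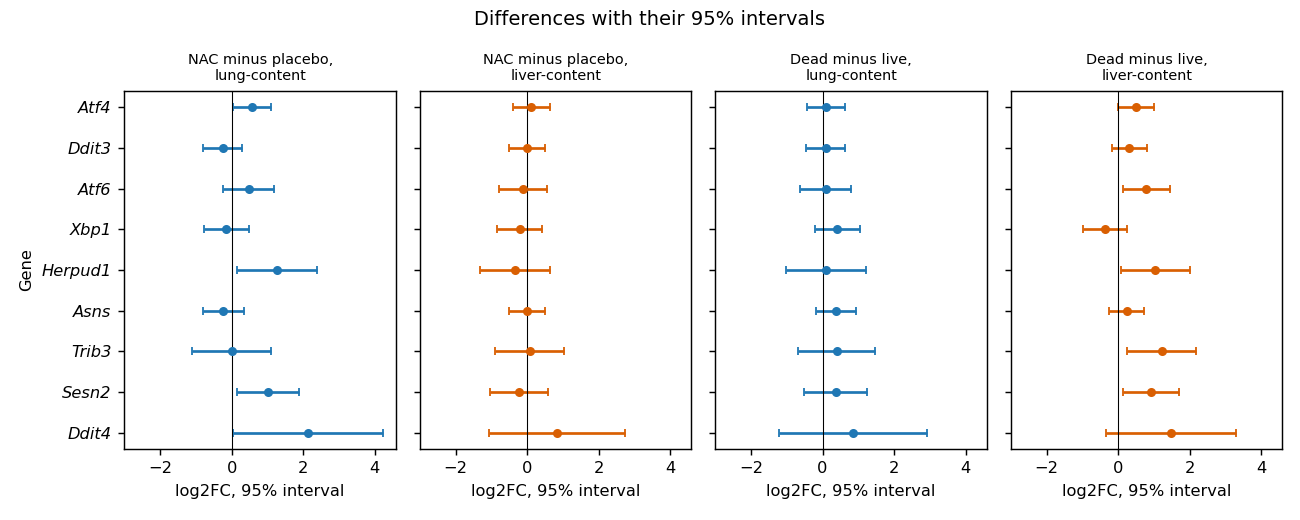
Log2FC of the 9 tested genes with 95% intervals for NAC minus placebo and dead minus live, in lung-content (blue) and liver-content (orange) libraries. The intervals for *Atf4*, *Herpud1*, *Sesn2* and *Ddit4* lie above 0 with NAC in lung-content libraries, those for *Atf6*, *Herpud1*, *Trib3* and *Sesn2* lie above 0 in dead pups of the liver-content group, and none of these passed adjustment over all genes.

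Genotype was compared at a fixed outcome, with content and treatment in the model. Age at death was not in the model. The paper reports that null pups died shortly after birth. The age at death of the pooled heterozygous pups is not known. For null minus heterozygous dead pups, genotype and age at death therefore cannot be told apart. For heterozygous minus WT live pups 0 of 9 genes passed and 0 had an unadjusted p under 0.05, with 0 of 14186 genes called (0%), 353 at an unadjusted p under 0.05, and 7 called by DESeq2. The log2FC ran from -0.73 for *Ddit4* (95% interval -1.97 to 0.51) to 0.17 for *Xbp1* (-0.26 to 0.59). For dead minus live heterozygous pups 0 of 9 passed, against 7 of 14183 (0.0494%). *Trib3* was the only 1 of the 9 with an unadjusted p under 0.05 in edgeR (log2FC 0.98, SE 0.43, adjusted p = 0.998), against 704 of all genes. For null minus heterozygous dead pups 0 of 9 passed and 0 of 14115 genes were called (0%), with 240 at an unadjusted p under 0.05 and 2 called by DESeq2, and the log2FC ran from -0.03 for *Ddit4* to 0.48 for *Herpud1* (95% interval -1.03 to 1.98). DESeq2 called 0 of the 9 genes in each of these 3 comparisons. The intervals are wide. For *Ddit4* the 95% interval was -1.11 to 4.17 for dead minus live heterozygous pups and -2.30 to 2.23 for null minus heterozygous dead pups. Changes of 2-fold and more in *Ddit4* or *Herpud1*, in at least 1 direction, lie within the intervals of these comparisons.

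Each NAC library was also set against the placebo library of the same label, as the study's design pairs them. In each of the 8 pairs a lung-content or the mixed library stood against a liver-content library, so that treatment and tissue content cannot be told apart. *Asns* followed content in 8 of 8, with a log2FC of NAC over placebo of -4.30 and -3.82 in the live WT and live heterozygous pairs labelled lung, 4.18 and 2.69 in the dead heterozygous and dead null pairs labelled lung, 4.24 and 3.83 in the live WT and live heterozygous pairs labelled liver, and -4.22 and 2.84 in the dead heterozygous and dead null pairs labelled liver. Over the 8 pairs 36 differences of the 9 genes reached 2-fold. Among pairs labelled lung, 3 of 9 genes (1 higher and 2 lower with NAC) did so in live WT pups, where 56% of all genes did, 4 of 9 (2 higher and 2 lower) in live heterozygous pups, against 60.6%, and 6 of 9 in dead heterozygous pups, all 6 higher, against 50.9% of all genes and 25% higher. The pair with the most was dead null labelled lung, with 8 of 9 higher with NAC, where 47.3% of all genes differed and 21.7% were higher. Among pairs labelled liver, 6 of 9 were higher in live WT pups, against 49.7% of genes that differed and 24.6% higher, and 2 of 9 were higher in live heterozygous pups, against 50.2% and 25%. In dead heterozygous pups 4 of 9 were lower, against 51.6% and 25.5% lower, and in dead null pups 3 of 9 differed (2 higher and 1 lower), against 55.8%. *Ddit4* had a log2FC of 3.41 and 4.50 in the live WT and live heterozygous pairs labelled lung and of -2.72 in the dead null pair labelled liver. A single library on each side gives no replicate check.

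In the mixed library, 9 of the 10 genes were within the range of the lung-content libraries, such as *Atf4* at 102, *Xbp1* at 104 and *Herpud1* at 110 scaled CPM, and *Asns* was the exception.

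Likeness among the genes was described by Pearson's r of log2(scaled CPM + 1) after the mean of each tissue group was subtracted, over 15 libraries that share their depth, scaling and pools with every gene compared. *Atf4* and *Ddit4* were the most alike pair at 0.96, followed by *Atf6* and *Sesn2* at 0.93 and *Atf4* and *Sesn2* at 0.92. *Ddit3* was closest to *Trib3* at 0.85, also over all genes. *Xbp1* had negative values with 8 of the other 9 genes, down to -0.72 with *Ddit4*. *Ddit4* was closest to *Tsc22d3* (0.98), *Lpin1* (0.98) and *Pim3* (0.98), of which *Tsc22d3* belongs to the glucocorticoid list. *Atf4* was closest to *Btg1* (0.98), *Atf6* to *Susd6* (0.99), *Sesn2* to *Sik3* (0.97), *Herpud1* to *Eif1* (0.98), *Xbp1* to *Gss* (0.93), *Trib3* to *Nudt4* (0.92) and *Asns* to *Ccdc88c* (0.86). Within lung-content libraries alone *Nudt4* and *Trib3* were at 0.37, and *Tsc22d3* and *Ddit4* at 0.99.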

How the data were processed

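The authors deposited an unnormalized estimated count for each gene symbol, from adapter-trimmed reads aligned to GRCm38 with the Omicsoft Sequence Aligner, keeping unique alignments. The submitters' processing notes name mm10, R 4.0.3 and edgeR 3.30.3, and the use of strand in counting is not given in the sources used here. Between 6.5% and 8.24% of values per library were not whole, so all were rounded.

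A joint fit of the 15 libraries with lung or liver content had 4 means (content by outcome) and a NAC term in each content, and separate fits used live (8), heterozygous (8) and dead (7) libraries with content and treatment as terms. The quasi-likelihood test of edgeR 4.0.16 (R 4.3.3) was run after TMM scaling on genes averaging 1 CPM or more, and an adjusted p (Benjamini-Hochberg over all genes tested) under 0.05 was called. P-values measure the spread between pooled libraries of different pup groups. Pairs of single libraries were compared by log2FC with a prior count of 0.125. Alternatives were other scalings, no filter, DESeq2 1.42.0, other uses of the mixed library and of labels, a pup group block, and leaving out libraries. The steps were tested on simulated data.

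The 10 genes, named in every comparison, and the gene lists were chosen with earlier results of these data known. From each list, up to 4 called genes with the largest log2FC and a mean of at least 10 CPM could be named, or the largest where none was called. *Creb3l3*, at 0 to 4 counts in lung-content libraries, was left out of the folds given.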

Additional observations from a re-analysis of the deposited data

Results flagged for a closer look

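Each gene was checked for a library that stood far from the others of its group, in groups of 4 to 10 libraries, by the gap to the nearest library as a share of the group's range. Of 63 such checks 3 passed Dixon's 95% limit, and chance alone flags about 1 in 20. *Atf4* was at 135 TMM-scaled CPM in the dead null placebo library labelled liver, above the other 3 lung-content placebo libraries at 102 to 104. *Atf4* was at 223 in the live WT NAC library labelled liver, above the other 3 live liver-content libraries at 151 to 158. *Herpud1* was at 923 in the dead null NAC library labelled lung, above the other 4 liver-content NAC libraries at 205 to 298.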

How the results depend on the processing

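The labels carry no replicate numbers, but NAC and placebo libraries share pup groups. Pup group as a block in place of outcome changed no call among the 9 genes and gave 657 genes for NAC in lung-content libraries and 25 for its difference between tissues. With the labelled tissue in place of content, liver over lung gave 0 of the 9 genes and 0 of all genes, with reversed log2FC for *Atf4* (-0.086), *Asns* (-0.19) and *Herpud1* (-0.41), and 0 genes for dead pups in liver-content, its difference between tissues, NAC in lung-content and dead heterozygous pups. Library size alone reversed *Atf4* (-0.048) and *Xbp1* (-0.004) for liver over lung, and gave 7 genes for NAC in lung-content and 1 for its difference.

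DESeq2 gave 65 genes for dead pups in liver-content, 7 for its difference between tissues, 1336 for NAC in lung-content (1 of the 9, *Herpud1*), 6 for NAC in liver-content, 227 for its difference, 7 for heterozygous against WT, 70 for dead heterozygous pups and 2 for null pups. With the mixed library as lung-content these were 9 and 0 for dead pups in liver-content and its difference, and 489 for NAC in lung-content. Without a filter, 15 genes were called for dead heterozygous and 3 for null pups. Without the 3 dead null libraries, chosen after seeing the data, 70 genes were called for dead pups in liver-content, 3227 for NAC in lung-content (4 of the 9), 3 for NAC in liver-content and 894 for its difference (2 of the 9), and *Xbp1* was 0.38 higher on the log2 scale in liver-content libraries. The cause of these changes was not tested.

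Leaving out 1 library at a time, the called genes ranged from 1 to 259 for dead pups in liver-content, 0 to 931 for NAC in lung-content, 0 to 1 for NAC in liver-content, 0 to 2 and 0 to 84 for the differences between tissues of dead pups and of NAC, 0 to 1 for heterozygous against WT, 0 to 16 for dead heterozygous and 0 to 1 for null pups. Among the 9 genes, liver over lung ranged from 6 to 7, the 7th being *Ddit4*, and each of the 6 calls held in 15 of 15 fits. The 259 came without the dead null NAC library labelled liver, and the 931 without the same library. The 0 came without the live heterozygous NAC library labelled lung. In the other comparisons 0 of the 9 were called in every such fit.

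With 7 and 8 libraries of mixed pup groups, 9 residual degrees of freedom and pooled RNA, changes of 2-fold and more in *Ddit4*, *Herpud1* and *Trib3* lie within some of the intervals. *Chac1*, at 1 to 12 counts, was tested only without the filter.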
